A study of Rattus norvegicus with 26 samples.

Results

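The Dlk1-Dio3 domain is an imprinted stretch of rat chromosome 6, and it was examined here as 96 of the 30558 rows with a count in the deposited tables (32552 rows in all). Its members are the rows on chromosome 6 between 133.5 Mb and 134 Mb with at least 1 raw count in any of 26 libraries. Coordinates are as deposited, and no source used here states the genome build of the tables. The stretch was chosen because its rows were higher in fetal than in adult hepatocytes of the same libraries, so that contrast is given below as a description only. The tables carry identifiers without gene names, so no row is given a name.

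Imprinted genes are expressed from only 1 of the parental chromosomes. In this domain the protein genes Dlk1, Rtl1 and Dio3 are expressed from the paternal copy, and the noncoding gene Meg3 with clusters of small nucleolar RNAs (snoRNAs) and microRNAs from the maternal copy. Dlk1 encodes a transmembrane protein related to Notch ligands and is a surface marker of hepatoblasts, Dio3 inactivates thyroid hormone, and the clusters are thought to be cut from long transcripts. The domain is known for high expression in fetal liver and low expression in adult liver.

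RNA was sequenced from rat liver in 26 libraries of 6 groups. Before transplantation there were 4 libraries of adult hepatocytes and 12 of immunopurified fetal hepatocytes, in sorts labelled LAP+, LAP+/OC2+ and LAP+/OC2- (4 libraries each). The labels spell out neither LAP nor OC2, and give no strain, age or litter. After transplantation there were 5 libraries of fetal-derived colonies and 5 of the adult host tissue beside them, captured by laser from the same 5 animals (242, 243, 246, 248 and 249). How the captured regions were chosen is not stated in the labels, and whether other cell types were captured was not tested, because markers could not be found by name. The numbered samples are called biological replicates, and p-values cover the spread between these samples. The cells and the captured tissue differ in library kit as well as in material, and levels were set side by side only within each of them.

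Library totals ranged from 7871347 to 16874438 counts, and 3 counts, the limit that a count of 0 allows, amounted to 0.132 to 0.774 CPM (counts scaled to TMM-adjusted library sizes), highest in LAP+/OC2+ libraries at 0.345 to 0.774 CPM. Mitochondrial features took 38.9% to 78.6% of the counts in the LAP+/OC2+ libraries, against 4.11% to 6.42% in the other fetal sorts, so nuclear counts there numbered 1917734 to 5045098. The host library of animal 248 detected 19581 features, against at least 25648 in the other hosts, and 10 members, against 43 to 70. For the counts of members called or above 0, some results that touch these libraries are also given without them or with nuclear features alone. Levels and sums are not.

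The label of the domain was checked by geometry, since 0 of 32552 identifiers matched a symbol in the RefSeq gene table (assembly GRCr8). The 104 rows of the window, of which 8 had no count, formed 7 blocks separated by gaps of more than 12000 nt. Of 95 neighbouring pairs of rows shorter than 200 nt, 50 had a pair of RefSeq genes between Dlk1 and Dio3 with exactly the same 2 lengths and the same distance between starts. The same search found 0 of the 95 pairs elsewhere in the RefSeq table. In blocks 3, 4 and 7, the RefSeq genes of the found pairs were all microRNA genes (6 of 14, 2 of 2 and 11 of 36 pairs found). In block 5 they were 17 snoRNA genes and 11 pseudogenes (22 of 29 pairs), and in block 6 they were 14 pseudogenes (9 of 14 pairs). The geometry therefore places blocks 3 to 7 in this domain, and gives a kind of gene for the found pairs of a block, not a name for a row. Blocks 1 and 2 and the rows of 200 nt or more were not part of this search.

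RefSeq lists 198 genes from Dlk1 to Dio3, among them 84 snoRNA genes, 59 microRNA genes and 5 protein genes. The 100 mature microRNA sequences between them carry 93 different seeds (bases 2 to 8, which pair with target RNAs), and 6 seeds are shared. The members of the largest shared seed, and of 1 seed shared within the miR-376 family, are shown to give the products of these clusters (RefSeq, GRCr8, 5′ to 3′, seed in capitals).
rno-miR-494-5p: aGGUUGUCcguguugucuucuc
rno-miR-496-5p: aGGUUGUCcaugguguguuc
rno-miR-410-5p: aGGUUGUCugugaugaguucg
rno-miR-376c-5p: gUGGAUAUuccuucuauguuu
rno-miR-376b-5p: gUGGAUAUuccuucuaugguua
The miR-376 pair differs outside the seed, near the 3′ end. Neither library kit is a small RNA kit per the labels' protocols, so the counts of the short rows are not levels of these mature microRNAs.

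The RefSeq promoters of the paternally expressed Dlk1 and the maternally expressed Meg3 are shown because they head the oppositely imprinted transcripts of the domain (GRCr8, plus strand, the 250 bases before each start). Capitals mark matches to TGCCGC or TATAAA on either strand.
Dlk1, chr6:134192347-134192596: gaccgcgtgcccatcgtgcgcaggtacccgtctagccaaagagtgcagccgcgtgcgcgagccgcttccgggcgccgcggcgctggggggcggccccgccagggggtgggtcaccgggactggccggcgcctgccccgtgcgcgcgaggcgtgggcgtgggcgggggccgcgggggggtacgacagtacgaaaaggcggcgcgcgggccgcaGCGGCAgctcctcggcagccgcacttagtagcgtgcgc
Meg3, chr6:134273806-134274055: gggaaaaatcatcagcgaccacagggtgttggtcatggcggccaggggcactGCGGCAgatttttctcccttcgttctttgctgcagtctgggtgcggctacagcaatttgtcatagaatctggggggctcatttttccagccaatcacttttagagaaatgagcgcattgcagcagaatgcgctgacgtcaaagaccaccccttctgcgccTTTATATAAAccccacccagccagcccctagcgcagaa
The Dlk1 promoter held 41 CG dinucleotides, against a median of 5, and 99.2% of 33465 promoters of this length held as many or fewer. The Meg3 promoter held 10. TGCCGC, part of the sequence known to bind the imprint-keeping protein ZFP57, occurred in both promoters and in 8.91% of all promoters. TATAAA was matched on both strands of the Meg3 promoter, at overlapping bases, not in that of Dlk1, and in 12.9% of all promoters. These matches describe letters, and binding or methylation was not measured.

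Among the 96 members, 4 were long (306 to 4815 nt of exon) and 92 were short (66 to 137 nt, median 85 nt), and each short member had 1 exon. The plus strand held 87 members and the minus strand 9. Block 1 is ENSRNOG00000019584 alone (133552821 to 133583751, plus strand, 10 exons, 1608 nt). Block 2 is ENSRNOG00000059315 alone (133632829 to 133642603, minus strand, 2 exons, 306 nt). Block 3 (133662524 to 133716847) holds 11 members, among them ENSRNOG00000041744 (80 nt), ENSRNOG00000059660 (133667975 to 133676907, plus strand, 7 exons, 583 nt) and ENSRNOG00000048751 (133711154 to 133716847, minus strand, 5 exons, 4815 nt). Exons of ENSRNOG00000048751 overlap 5 of the 8 rows without a count, 4 of them on the other strand, so its reads cannot be told from theirs without a stated strand setting. Block 4 holds 3 members, and block 5 holds 30 (133753217 to 133798358) at a median distance of 896 nt between starts, all on the plus strand. Block 6 holds 15 members of 66 to 75 nt, and block 7 holds 35 (133857700 to 133898905).

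In adult hepatocytes, few members had any count. Counts were found for 21 of the 96 members over the 4 adult libraries, and for 9 to 11 in any 1 of them. The members summed to 14.2, 14.5, 16.01 and 13.2 CPM in adult libraries 1 to 4, of which the long members made up 11.6 to 14.6 CPM. In LAP+ cells 77 members had a count and the sum was 1526 ± 303 CPM (SD, n = 4). In LAP+/OC2- cells 77 members had a count and the sum was 1359 ± 247 CPM (SD, n = 4). In LAP+/OC2+ cells 42 members had a count and the sum was 343 ± 103 CPM (SD, n = 4), from libraries with fewer nuclear counts. In bulk samples, fewer cells that express the domain and less RNA per cell cannot be told apart.

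**Figure D1:**
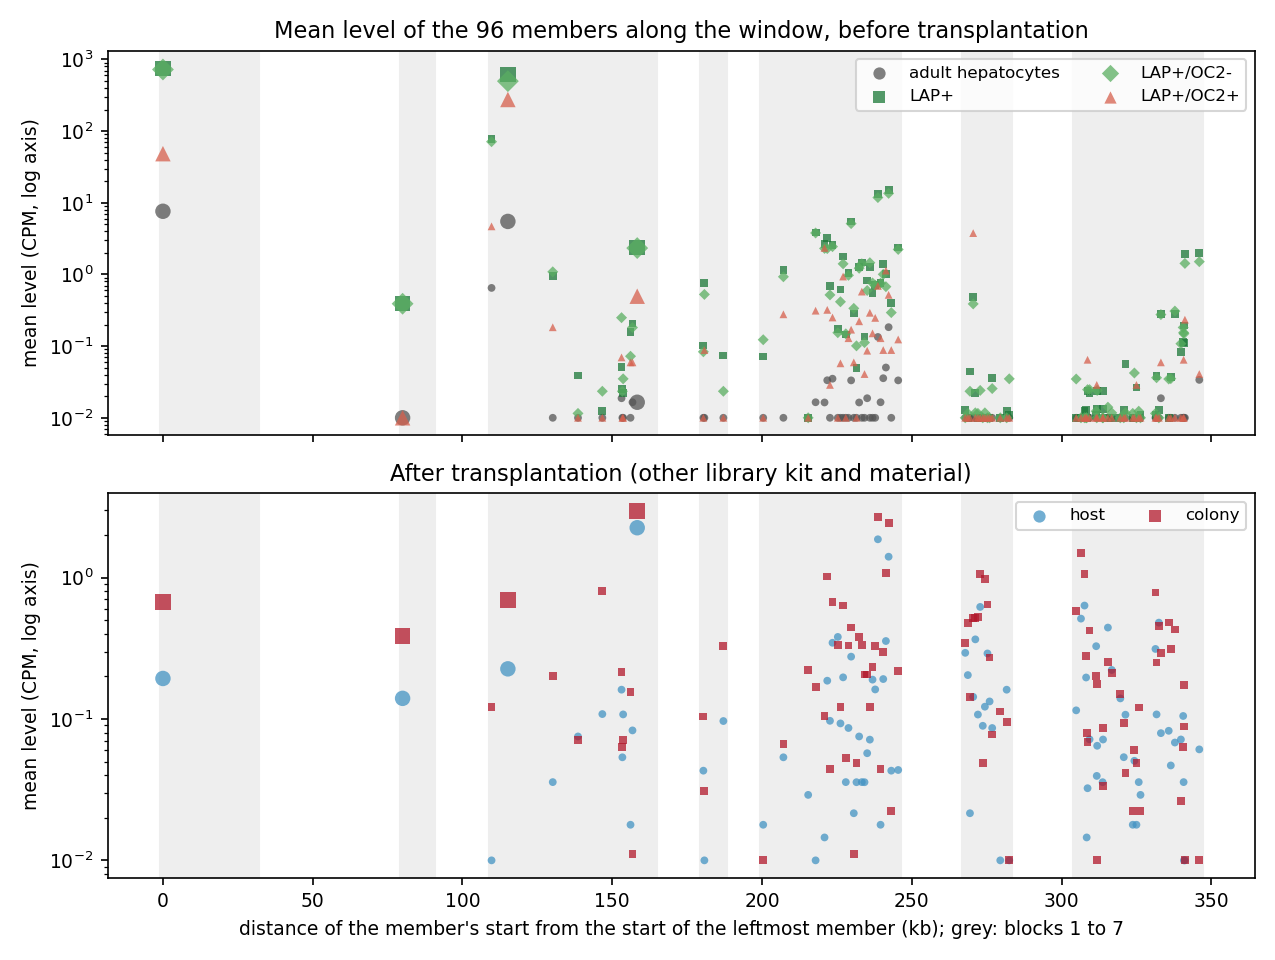
Mean CPM of each member (log axis) against the distance of its start from the start of the leftmost member in kb, before (top) and after transplantation (bottom, other kit and material). Large symbols are long members, small symbols short members, grey bands the 7 blocks, and symbols at 0.01 stand for means of 0.01 CPM or less. LAP+ and LAP+/OC2- symbols lie close together, from 0.01 to above 100 CPM, with the highest in blocks 1 and 3.

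ENSRNOG00000019584, the leftmost member, had the highest mean CPM in LAP+ and LAP+/OC2- cells, raised by 1 library of each sort. It stood at 584, 1309, 510 and 611 CPM in LAP+ libraries 1 to 4, and at 1164, 558, 558 and 612 CPM in LAP+/OC2- libraries 1, 3, 4 and 5. In LAP+/OC2+ libraries 1 to 4 it stood at 77.1, 58.2, 31.2 and 27.1 CPM, and in adult libraries 1 to 4 at 7.27, 8.70, 8.37 and 6.09 CPM. The adult, LAP+/OC2+ and other fetal ranges did not overlap, while LAP+ and LAP+/OC2- overlapped. ENSRNOG00000059660 had the highest mean CPM in LAP+/OC2+ cells. It stood at 789, 486, 652 and 550 CPM in LAP+ libraries 1 to 4, and at 413, 583, 515 and 478 CPM in LAP+/OC2- libraries 1, 3, 4 and 5. It stood at 263, 298, 154 and 387 CPM in LAP+/OC2+ libraries 1 to 4, and at 5.77, 4.52, 6.13 and 5.55 CPM in adult libraries 1 to 4. It lay above ENSRNOG00000019584 in LAP+ libraries 1 and 3, in LAP+/OC2- library 3 and in every LAP+/OC2+ library, and below it in the other libraries before transplantation. On the TMM scale, its LAP+/OC2+ values lay below those of the other fetal sorts, closer to them than for the leftmost member. As shares of nuclear counts, its LAP+/OC2+ and LAP+/OC2- values overlapped. LAP+/OC2+ library 4 had 3368 of 5045098 nuclear counts, a larger share than the 8811 of 14584021 in LAP+/OC2- library 1.

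ENSRNOG00000041744, an 80 nt row at the left edge of block 3, had the highest mean CPM of the short members in each group before transplantation. It had 81.8, 73.5, 82.7 and 75.2 CPM in LAP+ libraries 1 to 4, and 70.9, 74.4, 71.4 and 67.9 CPM in LAP+/OC2- libraries 1, 3, 4 and 5. In LAP+/OC2+ libraries 1 to 4 it had 3.10, 4.98, 4.57 and 6.10 CPM, and 0.541 to 0.720 CPM in the adult libraries. The mean and SD were 78.3 ± 4.62 CPM for the LAP+ libraries and 4.69 ± 1.24 CPM for the LAP+/OC2+ libraries (n = 4 each), so the spread was small for its level in the former and larger in the latter. ENSRNOG00000048751, the 4815 nt member on the minus strand, had 1.74, 4.15, 1.64 and 1.90 CPM in LAP+ libraries 1 to 4, and 3.75, 2.30, 1.35 and 1.93 CPM in LAP+/OC2- libraries 1, 3, 4 and 5. It had 0.163 to 0.774 CPM in LAP+/OC2+ cells and 1 count in all adult libraries together. ENSRNOG00000059315, the minus-strand member of block 2, had 3 to 12 counts per LAP+ library, 5 to 11 per LAP+/OC2- library and none in adult or LAP+/OC2+ cells. In single LAP+/OC2+ libraries 3 counts amount to 0.345 to 0.774 CPM, a limit that overlaps its LAP+ levels of 0.150 to 0.615 CPM. The 4 LAP+/OC2+ libraries were not pooled for it, and whether its level was lower there was not tested. This member was too low to pass the filter before transplantation.

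**Figure D2:**
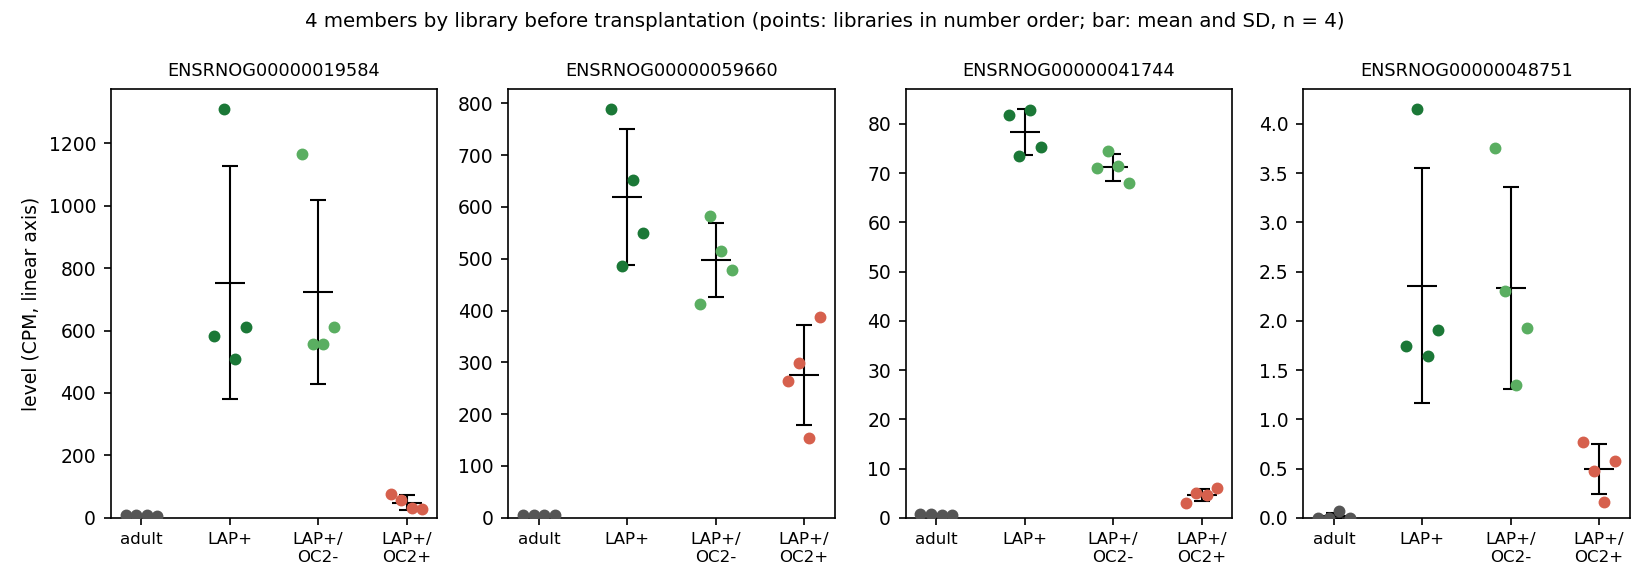
Level in CPM (linear axis) of 4 members in each of the 16 libraries before transplantation, in number order within a group, with the mean and SD of 4 libraries. The LAP+/OC2+ points lie below the LAP+ and LAP+/OC2- points in all 4 panels. In the panels of ENSRNOG00000019584 and ENSRNOG00000048751, LAP+ library 2 and LAP+/OC2- library 1 lie above the rest.

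Divided by exon length in kb, ENSRNOG00000059660 had 1062 ± 227 and ENSRNOG00000019584 had 468 ± 232 CPM per kb in LAP+ cells (SD, n = 4). In LAP+/OC2+ cells these members had 473 ± 165 and 30.1 ± 14.7 CPM per kb (SD, n = 4). ENSRNOG00000041744 had 979 ± 57.8 CPM per kb in LAP+ and 58.6 ± 15.5 CPM per kb in LAP+/OC2+ cells (SD, n = 4), and whether so short a row can be set beside long ones on this scale was not tested. ENSRNOG00000048751 had 0.490 ± 0.249 CPM per kb in LAP+ cells (SD, n = 4), far below the other long members of blocks 1 and 3.

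Against adult cells, which is the contrast the stretch was chosen on, all 31 members that passed the low-count filter were called higher in the mean of the 3 fetal sorts. The call was an edgeR adjusted p under 0.05, and 37.1% of all tested features were called higher. A member could pass that filter through the groups where it is high, so this count describes the choice and nothing is read from it. Of the 31, 13 had no adult count, 13 had 1 to 3 adult counts and 5 had at least 8. For the 3 with the most adult counts (447, 321 and 38), the fetal mean was divided by the adult mean in raw CPM, on library totals. This ratio was 91.5 for ENSRNOG00000019584, 104 for ENSRNOG00000059660 and 106 for ENSRNOG00000041744. On the TMM scale, their log2 differences (edgeR) were 5.28, 6.32 and 5.51 in the same order. These average the log levels of the 3 sorts, while the ratio averages the levels themselves, so they are unlike measures.

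The rows on either side of the window lie far from its members, and 1 of them was also higher in LAP+ than in adult cells. To the left, the nearest rows are ENSRNOG00000004650, which ends 580310 nt from the leftmost member, and ENSRNOG00000004733. In adult cells ENSRNOG00000004733 stood at 3.22 ± 0.641 CPM, and in LAP+ cells at 2.25 ± 0.250 CPM (SD, n = 4). ENSRNOG00000004650 stood at 0.188 ± 0.065 CPM in the former and 3.74 ± 1.67 CPM in the latter (SD, n = 4), and the groups did not overlap. To the right, the nearest rows lie at least 727192 nt away, and for ENSRNOG00000052017 the adult level was 0.409 ± 0.035 CPM and the LAP+ level 0.096 ± 0.060 CPM (SD, n = 4). ENSRNOG00000048809, an 82 nt row beside it, had 8 counts over all libraries. At the right edge inside the window, ENSRNOG00000050073 stood at 1.99 ± 0.641 CPM in LAP+ cells (SD, n = 4) and had 2 adult counts in all. These values describe the edges of the window, and no test of this contrast is given for them. Between LAP+/OC2+ and LAP+/OC2- cells, ENSRNOG00000004733 was higher by a log2 difference of 2.11 (SE 0.28, edgeR adjusted p = 4.67e-06), and ENSRNOG00000004650 differed by -0.83, which did not pass the test (SE 0.45, edgeR adjusted p = 0.11).

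Between the fetal sorts, which the choice of the stretch did not compare, the leading long and short members were lower in LAP+/OC2+ than in LAP+/OC2- cells. Of 31 tested members, 27 were lower, 1 was higher and 3 did not pass the test (edgeR quasi-likelihood test, Benjamini-Hochberg adjusted p under 0.05). Among all 13818 tested features, 36.6% were called lower and 30.8% higher. A member could pass the low-count filter through the sorts where it is high, so these counts describe the members that passed. With no low-count filter, 33 of 88 members (37.5%) were called lower and 1 higher, against 23.5% and 21.98% of all features. The median log2 difference was -2.49 over the tested members, -0.18 over all features and 0.18 over all 206 tested features shorter than 200 nt. In 26 of the 31, every LAP+/OC2+ library lay below every LAP+/OC2- library, and in 1 every one lay above, against 32.9% and 26.4% of all tested features. Over every row with a count before transplantation, the libraries lay apart and lower in 35 of 88 members, against 20.4% of all features. Members in blocks 1, 3, 4 and 7 that passed the low-count filter (8) were all lower, as were 19 of 22 in block 5, and the 1 tested member of block 6 was higher.

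The size of the difference varied widely among the leading members. ENSRNOG00000019584 was lower by a log2 difference of -3.91 (SE 0.40, edgeR adjusted p = 2.34e-07), and ENSRNOG00000041744 by -3.89 (SE 0.16, edgeR adjusted p = 6.27e-11). ENSRNOG00000059660 was lower by -0.85 (SE 0.23, edgeR adjusted p = 0.0036). ENSRNOG00000048751 was lower by -2.26 (SE 0.53, edgeR adjusted p = 0.0013), from 1 to 5 counts per LAP+/OC2+ library.

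Proportions among these members can be read without any scaling, as ratios of raw counts within a library. Such a ratio sets members against each other, and does not show which of them differed between sorts. The ratio of ENSRNOG00000019584 to ENSRNOG00000059660 was 0.293, 0.195, 0.202 and 0.0701 in LAP+/OC2+ libraries 1 to 4. It was 2.82, 0.958, 1.08 and 1.28 in LAP+/OC2- libraries 1, 3, 4 and 5, 0.740 to 2.69 in LAP+ and 1.10 to 1.93 in adult libraries. Each LAP+/OC2+ ratio thus lay below every ratio of the other 3 groups, which overlapped. The ratio of ENSRNOG00000041744 to ENSRNOG00000059660 was 0.0118 to 0.0296 in LAP+/OC2+ libraries, and 0.0976 to 0.172 in the other 12. Adult and LAP+ cells, in spite of their different levels, thus had these counts in overlapping proportions. Mitochondrial features took 78.6%, 73.7%, 57.6% and 38.9% of LAP+/OC2+ libraries 1 to 4, the order in which ENSRNOG00000019584 stood highest to lowest, and the part of this in its level was not tested. With nuclear features alone, 26 of 30 tested members were lower, 1 was higher, and 35.4% of features were called lower.

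**Figure D3:**
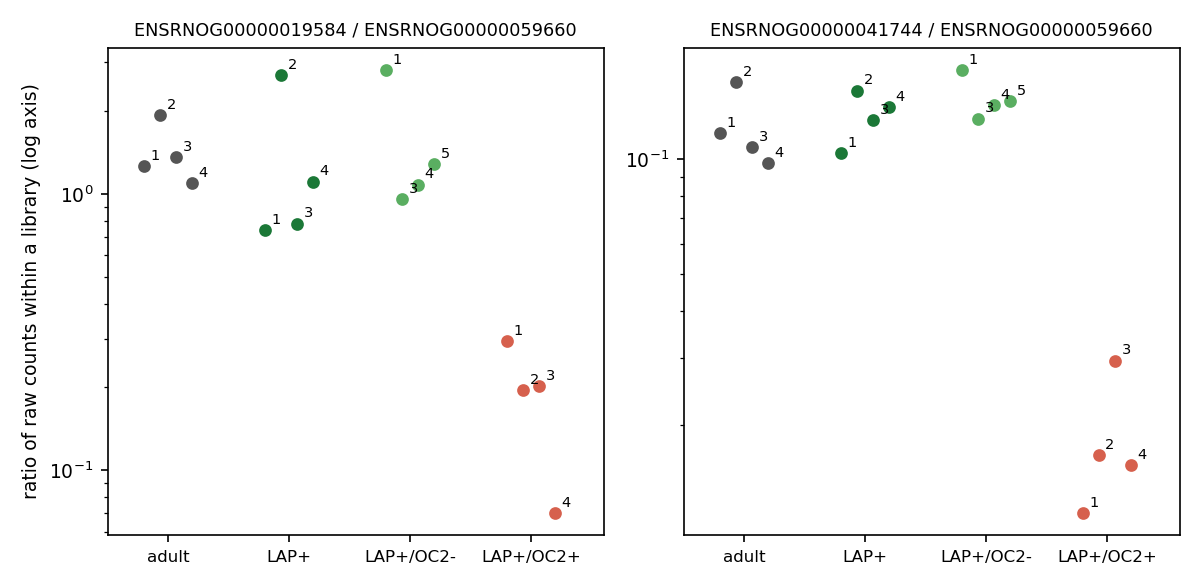
Ratio of raw counts of 2 members within each library before transplantation (log axis), with the library number beside each point. In both panels the 4 LAP+/OC2+ points lie below the 12 others, and LAP+ library 2 and LAP+/OC2- library 1 are the highest fetal points on the left.

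In block 5, the run of evenly spaced short rows where RefSeq has snoRNA genes at the found pairs, the summed level in LAP+/OC2+ cells was below that of the other fetal sorts and above that of adult cells. The 30 members summed to 67.9, 67.9, 62.4 and 58.5 CPM in LAP+ libraries 1 to 4, to 53.7 to 64.7 CPM in LAP+/OC2- libraries, and to 8.77, 11.2, 5.87 and 11.3 CPM in LAP+/OC2+ libraries 1 to 4. In adult libraries 1 to 4 they summed to 0.300, 0.589, 0.725 and 0.879 CPM, from 4 to 13 counts. Guide snoRNAs of this kind direct chemical modification of other RNAs, although targets of many in this domain are unknown. ENSRNOG00000059277 had the highest mean of the block in the LAP+ and LAP+/OC2- sorts, with 14.9 ± 0.972 CPM in the LAP+ sort. Its level was 13.5 ± 1.37 CPM in the LAP+/OC2- sort, against 0.519 ± 0.222 CPM in the LAP+/OC2+ sort (SD, n = 4 each), a log2 difference of -4.67 (edgeR adjusted p = 1.72e-08). ENSRNOG00000056115 to its left stood at 13.3 ± 1.48, 11.8 ± 0.323 and 0.691 ± 0.482 CPM in the same order (SD, n = 4), with a log2 difference of -4.21 (edgeR adjusted p = 2.65e-08).
ENSRNOG00000056648 fell as well, by -4.81 (SE 0.46, edgeR adjusted p = 1.04e-07), from 5.12 ± 1.22 to 0.170 ± 0.142 CPM (SD, n = 4). The largest difference outside block 5 was at ENSRNOG00000050073 in block 7, at -4.87 (edgeR adjusted p = 2.02e-04), where LAP+/OC2+ cells had 1 count in all and LAP+/OC2- cells 124. Scaled to library size, those counts gave a ratio of 0.0285, with an exact 95% counting interval of 7.16e-04 to 0.162. The other short rows among the 10 largest differences were ENSRNOG00000054149 (-4.52), ENSRNOG00000059106 (-4.00), ENSRNOG00000056628 (-3.40) and ENSRNOG00000051976 (-3.36), with 1 to 5 counts each over the LAP+/OC2+ libraries. For the 3 of these with 1 or 2 counts, the ratios were 0.0393 (exact 95% counting interval 0.00472 to 0.144), 0.0873 (0.0104 to 0.326) and 0.0842 (0.00208 to 0.496), for ENSRNOG00000054149, ENSRNOG00000056628 and ENSRNOG00000051976. Rows with 1 or 2 counts passed the low-count filter through the sorts where they are high, and were picked for large differences. Their p-values, ratios and intervals allow for neither choice, so they describe these rows and nothing more is read from them.

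Members of block 5 did not all move together, although they lie on 1 strand close together. ENSRNOG00000060706, an 82 nt row, had 1.29, 3.80, 1.63 and 2.65 CPM in LAP+/OC2+ libraries 1 to 4 and 1.98 to 2.87 CPM in LAP+/OC2- libraries, so the groups overlapped. Its log2 difference was 0.02 (SE 0.35, edgeR adjusted p = 0.96). The row next to it, ENSRNOG00000053622, lay between 0.237 and 0.460 CPM over the LAP+/OC2+ libraries and between 1.93 and 2.57 CPM over those of the LAP+/OC2- sort, a log2 difference of -2.71 (SE 0.37, edgeR adjusted p = 7.23e-06). Near the right end of the block, ENSRNOG00000053964 had 1.03, 0.475, 0.489 and 2.53 CPM in LAP+/OC2+ libraries 1 to 4 and 0.450 to 1.09 CPM in LAP+/OC2- libraries, a log2 difference of 0.86 that did not pass the test (SE 0.53, edgeR adjusted p = 0.16). That estimate rests on LAP+/OC2+ library 4, without which it was -0.08. Its right-hand neighbour is ENSRNOG00000059277, which fell more than most members. The third member that did not pass was ENSRNOG00000055085, at -0.53 (edgeR adjusted p = 0.37). ENSRNOG00000053622, ENSRNOG00000053964 and ENSRNOG00000055085 were chosen after their values were seen.

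Block 6 held the only tested member that was higher in LAP+/OC2+ cells. ENSRNOG00000056068, a 75 nt row, had 3.35, 5.46, 1.79 and 4.49 CPM in LAP+/OC2+ libraries 1 to 4 (13, 23, 11 and 39 counts). The LAP+/OC2- libraries had 0.225 to 0.507 CPM, the LAP+ libraries 0.132 to 0.872 CPM and the adult libraries no count. Its LAP+/OC2+ values lay above those of every other library before transplantation. The log2 difference was 3.24 against LAP+/OC2- (SE 0.50, edgeR adjusted p = 5.52e-05) and 2.95 against LAP+ (SE 0.49, edgeR adjusted p = 1.07e-04). The other 14 members of block 6 had no count in any LAP+/OC2+ library, and together with it the block had 86 counts there. It was chosen after its values were seen. RefSeq has only pseudogenes at the found pairs of this block. Sequences of its rows were not compared, and whether they share reads was not tested.

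**Figure D4:**
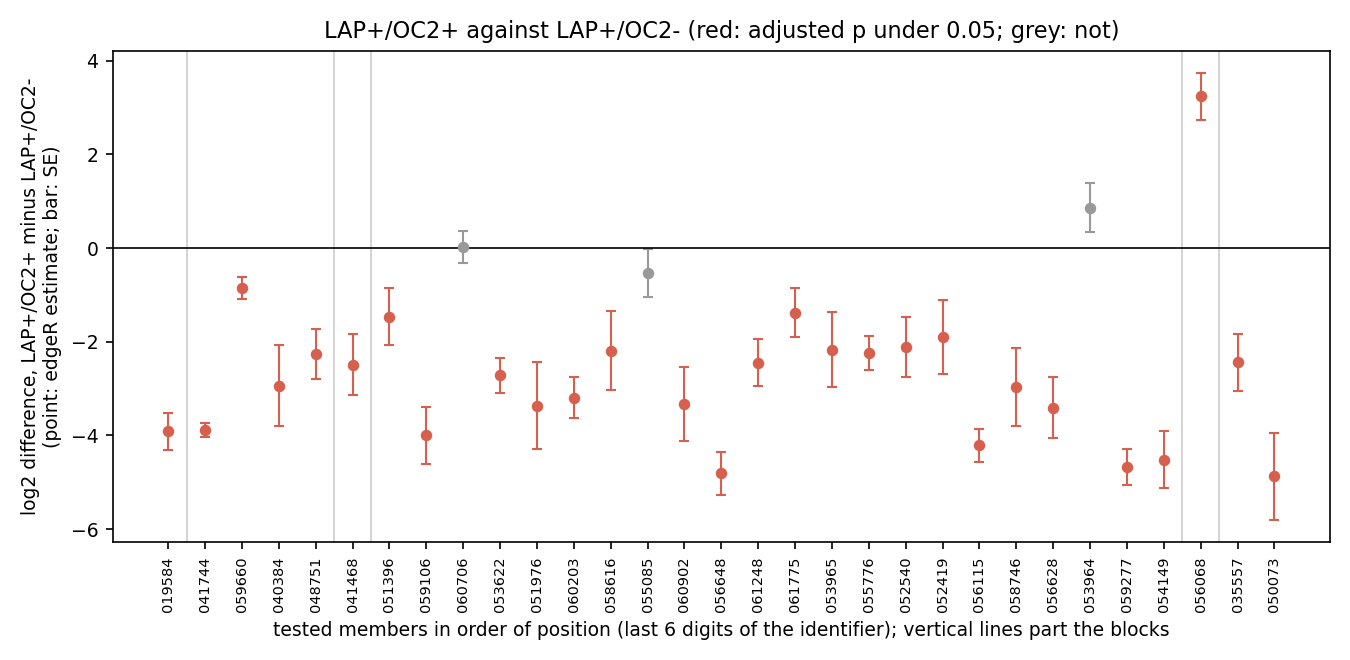
Log2 difference of LAP+/OC2+ minus LAP+/OC2- for the 31 tested members in order of position (edgeR estimate with its SE), red where the adjusted p was under 0.05 and grey where not. The x axis gives the last 6 digits of the identifiers, and vertical lines part the blocks. All red points but ENSRNOG00000056068 lie below 0, and the grey points lie among lower neighbours in block 5.

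Against LAP+ cells, LAP+/OC2+ cells differed in a like number of members. These comparisons share the LAP+/OC2+ libraries, so the values are set side by side and are not independent. Of 31 tested members, 27 were lower, 1 was higher and 3 did not pass the test (edgeR), against 35.9% and 32.0% of all features. The median log2 difference was -2.87 over the tested members and -0.10 over all features, and in 24 of the 31 every LAP+/OC2+ library lay below every LAP+ library, against 30.8% of all tested features. With no low-count filter, 34 of 88 members were called lower and 1 higher, against 23.3% and 22.2% of all features. With nuclear features alone, 26 of 30 tested members were called lower and 1 higher, against 34.7% and 32.8% of all features. ENSRNOG00000019584 was lower by -3.97 (SE 0.40, edgeR adjusted p = 2.10e-07), ENSRNOG00000041744 by -4.02 (SE 0.16, edgeR adjusted p = 6.12e-11) and ENSRNOG00000059660 by -1.17 (SE 0.23, edgeR adjusted p = 2.82e-04). ENSRNOG00000040384, a 94 nt row of block 3 chosen after its values were seen, was lower by -2.74 (edgeR adjusted p = 0.014), from 3 counts in LAP+/OC2+ and 79 in LAP+ cells (ratio 0.134, exact 95% counting interval 0.0271 to 0.407). Without LAP+/OC2+ library 4 its adjusted p was 0.058 (edgeR).

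LAP+/OC2- and LAP+ cells differed in 0 of the 31 tested members by edgeR, with 0 at an unadjusted p under 0.05, and 0 by DESeq2, with 1 at an unadjusted p under 0.05. Of all features, 0.391% were called in either direction by edgeR. The log2 differences of the members ranged from -0.57 to 0.48. They were -0.06 for ENSRNOG00000019584 (SE 0.35), -0.32 for ENSRNOG00000059660 (SE 0.23), -0.14 for ENSRNOG00000041744 (SE 0.13) and -0.02 for ENSRNOG00000048751 (SE 0.38). The SE reached 0.52 over the tested members, at ENSRNOG00000056068. Among the members listed here, precision was poorest for those that varied most within a sort.

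That variation had a pattern among 3 of the 4 long members. LAP+ library 2 and LAP+/OC2- library 1 had the highest levels of ENSRNOG00000019584 in their sorts, at 1309 and 1164 CPM, against 510 to 612 CPM in the other 6 libraries. The same libraries had the highest levels of ENSRNOG00000048751, at 4.15 and 3.75 CPM, against 1.35 to 2.30 CPM. They had the lowest levels of ENSRNOG00000059660 in their sorts, at 486 CPM against 550 to 789 CPM in the other LAP+ libraries, and at 413 CPM against 478 to 583 CPM in the other LAP+/OC2- libraries. ENSRNOG00000059315 did not follow in LAP+ cells, with 0.441 CPM in library 2 and 0.615 CPM in library 1, from 10 and 12 counts. ENSRNOG00000041744 was lowest among LAP+ libraries in library 2, at 73.5 CPM against 75.2 to 82.7 CPM. In LAP+/OC2- library 1 it was not the lowest, at 70.9 CPM against 67.9 to 74.4 CPM. The short member ENSRNOG00000059106 was highest in LAP+ library 2 and LAP+/OC2- library 1, at 4.90 and 4.64 CPM, against 2.72 to 3.99 CPM. So was the block 7 sum, at 7.50 and 5.68 CPM, against 3.26 to 5.54 CPM. ENSRNOG00000056648 did not follow in LAP+ cells, with 5.69 CPM in library 2 and 6.25 CPM in library 1. The ratio of ENSRNOG00000048751 to ENSRNOG00000019584 counts was 0.00312 ± 1.01e-04 in LAP+ and 0.00323 ± 7.01e-04 in LAP+/OC2- libraries (SD, n = 4 each). In LAP+/OC2+ libraries it was 0.00524 to 0.0212. Each of the rows varied more than 2-fold among LAP+ libraries. The LAP+ ratios rest on 31 to 94 counts of ENSRNOG00000048751 per library, which carry counting error, so nothing is read from their small spread. These members were picked by length and abundance. The libraries, and the short rows and block shown, were singled out after their values were seen, and no test was made of the pattern.

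After transplantation, the domain was measured at low counts in captured tissue. The host libraries held 136 to 244 counts over all members and the colony libraries 321 to 760. Counts were found for 89 members in hosts and 91 in colonies over 5 libraries each. The members summed to 18.7 CPM in the host and 41.9 CPM in the colony of animal 242, 9.88 and 24.9 CPM in animal 243, 21.8 and 25.6 CPM in animal 246, 14.4 and 37.5 CPM in animal 248, and 21.8 and 42.2 CPM in animal 249. The colony was thus higher in 5 of 5 animals, by 1.18 times in animal 246 and 1.93 to 2.60 times in the others. The sum rests on members chosen with the data known, so no p is given.

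No single member passed the test. Of 24 tested members, 0 were called by edgeR with the animal as a block (2 at an unadjusted p under 0.05), and 0 by DESeq2 (5 at an unadjusted p under 0.05). Of all 22303 tested features, 0.565% were called higher in colonies and 0.610% lower by edgeR. The log2 difference was above 0 in 23 of the 24 members and in 57.2% of all features. Its median was 1.49 over the members, against 0.11 over all features. Over the 943 tested features shorter than 200 nt it was 0.40, and 581 of them were above 0. A member could pass the low-count filter through the colonies, so these values describe the members that passed. With no low-count filter, 76 of 94 members were above 0, with a median of 0.96, against 57.7% of all features. Of features shorter than 200 nt, 2757 of 4439 were above 0, with a median of 0.52. With the stricter filter the median was 0.71, over 3 members. Without animal 248, whose host library was thin, 16 of 17 tested members were above 0, with a median of 1.20. So were 52.6% of all features, with a median of 0.036, and 446 of 752 features shorter than 200 nt, with a median of 0.26.

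The long members were near the limit of detection after transplantation except ENSRNOG00000048751. ENSRNOG00000019584 had 0 to 4 counts per host library and 0 to 25 per colony library, and its log2 difference was 1.82 (SE 1.26, edgeR adjusted p = 0.42). ENSRNOG00000059660 had 0 to 6 counts per host library and 3 to 20 per colony library (1.63, SE 1.22, edgeR adjusted p = 0.46). ENSRNOG00000048751 stood at 1.29, 0.436, 1.96, 5.24 and 2.33 CPM in the hosts and 1.91, 2.41, 2.36, 3.77 and 4.39 CPM in the colonies of animals 242, 243, 246, 248 and 249. It was higher in the colony of 4 animals and lower in that of animal 248, and the groups overlapped (0.67, SE 0.48, edgeR adjusted p = 0.44). ENSRNOG00000041744, the leading short row before transplantation, had no host count and 6 colony counts in all.

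Among short members, the lowest adjusted p belonged to ENSRNOG00000053622 of block 5. It stood at 0.754, 0, 0.179, 0 and 0 CPM in the hosts and 2.24, 0.466, 0.991, 0.554 and 0.834 CPM in the colonies of animals 242, 243, 246, 248 and 249. The colony was higher in 5 of 5 animals, with a log2 difference of 3.22 (SE 1.17, edgeR adjusted p = 0.13). ENSRNOG00000059277 and ENSRNOG00000056115, the leading rows of block 5, differed by 0.87 and 0.57 (edgeR adjusted p = 0.37 and 0.54). ENSRNOG00000035507, a 118 nt row of block 7 on the minus strand, had no count in any of the 16 libraries before transplantation. It had 27 counts in hosts and 110 in colonies, a log2 difference of 1.78 (SE 0.81, edgeR adjusted p = 0.23). The only tested member below 0 was ENSRNOG00000036244, at -0.93 (SE 1.61, edgeR adjusted p = 0.77). Both rows of block 7 were chosen after their values were seen.

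By block, the colony sum was higher in 5 of 5 animals in blocks 3, 4, 5 and 7, in 4 of 5 in block 1 and in 3 of 5 in blocks 2 and 6. Blocks 1, 2 and 4 were near the limit of detection. Block 1 had no count in either library of animal 243, and block 2 was lower in the colonies of animals 242 and 246. Block 5 summed to 7.86, 3.27, 8.30, 4.25 and 8.42 CPM in the hosts and 15.5, 12.3, 9.98, 12.5 and 14.1 CPM in the colonies of animals 242, 243, 246, 248 and 249, so the groups did not overlap. Block 7 summed to 3.49 to 5.60 CPM in the hosts and 4.74 to 12.2 CPM in the colonies. Block 6 had no count in the host of animal 248, and its colonies in animals 246 and 249 stood below their hosts. These sums are descriptions over members chosen with the data known, and no test was made of them.

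**Figure D5:**
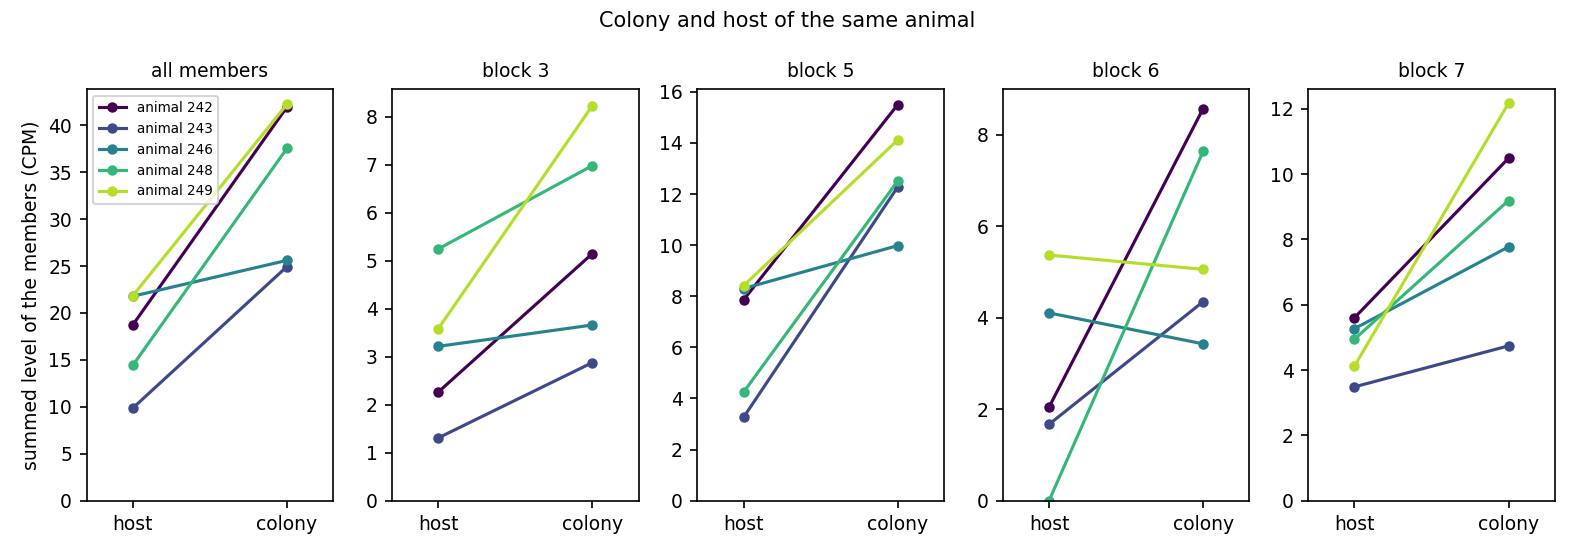
Summed CPM of all 96 members and of the members of blocks 3, 5, 6 and 7 in the host and colony of each of 5 animals, joined by a line per animal. All lines rise in the panels of all members and of blocks 3, 5 and 7, and those of animals 246 and 249 fall in block 6.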

How the data were processed

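RNA-seq libraries of rat hepatocytes (16) and laser-captured liver tissue (10) were analysed from the deposited raw counts, which the authors made per feature with exon coordinates and lengths, per the file headers. The submitters' processing notes name the aligner STAR 2.5.2b and the counter featureCounts (Subread 1.5.2), besides bcl2fastq 2.17 and Trimmomatic 0.36. Per the labels' protocols, sorted cells went into NEBNext Ultra libraries and captured tissue into SMARTer Stranded Pico libraries. No source used here states the build, the annotation or the strand setting. Groups come from the sample titles.

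Tests ran over all features with edgeR 4.0.16 under R 4.3.3 (TMM, filterByExpr, robust quasi-likelihood test) and Benjamini-Hochberg adjustment at 0.05, on the 16 libraries before transplantation in 1 fit and on the 10 after it with the animal as a block. CPM use TMM-scaled library sizes, except the raw CPM of the ratios of fetal to adult means, which use library totals. The test was tried on simulated data. Alternatives were RLE scaling, other filters, DESeq2 1.42.0, nuclear features alone, other blocking and leaving out each library. The filter by group alone after transplantation was added after seeing the data.

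The animal was used as a block since each host and colony pair is labelled with 1 animal. Correlations of the paired deviations ran from -0.21 to 0.29, and 2 of the 5 exceeded 0.1. All 44 pairs of replicates differed by more than sampling noise, with chi-square values of 4.95 to 260 times their degrees of freedom. Intervals and limits cover counting error only.

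Members and lists were chosen with earlier results of these data known. The rule for members described singly took the 4 long ones, the 6 most abundant short ones, up to 10 called per comparison with the largest difference, and the 2 nearest rows on each side of the window. Others are said to be chosen after their values were seen, or are given as exceptions. Lists of pathway genes and cell type markers could not be used, because no identifier matched a symbol.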

Additional observations from a re-analysis of the deposited data

Results flagged for a closer look

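Among 70 sets of group values examined for a sample far from the others, 7 stood out, and chance gives about 1 in 20 such sets. ENSRNOG00000019584 stood at 1309 CPM in LAP+ library 2, where the other 3 reached 611 CPM at most, and at 1164 CPM in LAP+/OC2- library 1, against at most 612 CPM in the others of that sort. ENSRNOG00000048751 stood at 4.15 CPM in LAP+ library 2, against at most 1.90 CPM in the others. ENSRNOG00000059277 stood at 15.6 CPM in LAP+/OC2- library 1, against at most 13.0 CPM. ENSRNOG00000059106 stood at 0.792 CPM in the colony of animal 242, from 12 counts, with 1 count in the other 4 colonies together. The host library of animal 248 detected 19581 features, and the colony library of animal 249 detected 80 members, against 51 to 59 in the other colonies. Causes were not tested.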

How the results depend on the processing

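The number of members called stayed within 1.5 times of the reported value under every alternative run, although their share fell where no filter was used, and no called member described singly changed direction. For LAP+/OC2+ against LAP+/OC2-, 20 of 24 members were called lower with the stricter filter (against 37.0% of all features), 33 of 88 with none (against 23.5%), and 24 of 31 with RLE scaling (32.9%) and with DESeq2 (33.6%), with 1 higher in each. In either direction, 23 to 27 were called when 1 library was left out. Of all features, 33.8% to 36.3% were then called lower and 28.5% to 31.0% higher. Against LAP+ the range was 24 to 27 members, against 33.4% to 35.8% of all features lower and 29.3% to 31.3% higher. For the fetal mean against adult it was 28 to 31, against 34.4% to 37.1% of all features called higher. For the other comparisons it was 0. RLE moved the median over all features from -0.18 to -0.05. After transplantation the stricter filter left 3 members and the filter by group 5, with 0 called and a median log2 difference of 0.71 and 0.90. Depth is a limit there, at 136 to 760 counts per library over 96 members.

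With a replicate block before transplantation, 25 of 31 members were called lower and 1 higher for LAP+/OC2+ against LAP+/OC2-. Of all features, 33.9% were called lower and 27.4% higher. Against LAP+ 25 members were called lower and 1 higher, against 34.6% and 30.3% of all features. Without a block after transplantation, 0 of 24 members and 0 of all 22303 features were called. Whether equal numbers before transplantation pair the samples is not stated in the labels. Correlations of their deviations (-0.43 to 0.20) cannot settle it, since those of the labelled host and colony pairs were -0.21 to 0.29. Signs turned for values that were never called. For LAP+/OC2+ against LAP+/OC2-, ENSRNOG00000060706 was -0.070 with the replicate block and -0.12 with no filter. With 1 library left out in turn, it ranged from -0.27 to 0.17, and ENSRNOG00000053964 from -0.079 to 1.16. Against LAP+ these ranges were -0.47 to 0.047 and -0.65 to 0.54. For LAP+/OC2- against LAP+, ENSRNOG00000019584 was 0.16 and ENSRNOG00000048751 was 0.30 with the replicate block, and their ranges were -0.39 to 0.35 and -0.34 to 0.41. The causes were not tested.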
